A study of Homo sapiens with 15 samples.

Results

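The genes of the respiratory chain and the ATP synthase were followed in 2 human cell lines after treatment with MYCi975, a compound designed against the MYC transcription factor, or after MYC itself was switched off. Members were the protein-coding rows whose symbols belong to complexes I to V by a fixed pattern of names (NDUF followed by A, B, C, S or V, SDHA to SDHD, UQCR, COX4 to COX8, ATP5, CYC1 and the mitochondrial MT-ND, MT-CO, MT-CYB and MT-ATP genes). The pattern found 94 of the 16109 genes in any of the 3 deposited tables, 81 encoded in the nucleus and 13 in mitochondrial DNA. Complex I had 46 members, complex II 4, complex III 10, complex IV 15 and complex V 19. Of these, 92 were in all 3 tables. COX6A1P2 was listed in PC3 only, and NDUFA4L2 only in the P493-6 table with MYCi975. By later names 4 members are not subunits: ATP5S and ATP5SL, COX7A2L, which is known for joining complexes III and IV, and COX6A1P2, a copy of COX6A1.

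PC3 is a prostate cancer line, and P493-6 is a B cell line, labelled as Burkitt lymphoma, in which tetracycline shuts off an introduced MYC gene. PC3 cells received 8 µM MYCi975 or DMSO, and P493-6 cells received 6 µM MYCi975, 0.1 µg/ml tetracycline in water, or DMSO, all for 24 h. The protocols give DMSO for the controls, whose treatment label reads none. There were 15 libraries, 3 in each of 5 groups. The tetracycline cells thus differ from their DMSO control in the solvent as well, and the doses of MYCi975 differ between the lines. No group received tetracycline without the MYC switch, so effects of the drug itself and of MYC loss cannot be told apart. Nothing states that the libraries came from separate cultures, so the spread that p-values rest on may be no more than technical.

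The respiratory chain sits in the inner mitochondrial membrane. Complexes I and II pass electrons to coenzyme Q, complex III passes them on to cytochrome c, complex IV gives them to oxygen, and complexes I, III and IV pump protons that complex V uses to make ATP. Complex II is wholly nuclear encoded, while the other complexes also need subunits made inside the mitochondrion from transcripts of mitochondrial DNA. MYC is known as a promoter of mitochondrial biogenesis in proliferating cells.

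Depth was 8162582 to 15926008 reads per library. MYC had 152.3, 144.9 and 149.8 CPM (a gene's reads scaled to 1000000 counted reads) with tetracycline, against 4692, 4701 and 4791 CPM in P493-6 control. With MYCi975 it had 5138, 5084 and 5132 CPM in P493-6, and 378.1, 359.4 and 385.9 CPM in PC3, against 301.1, 300.4 and 309.3 CPM in PC3 control. MYC mRNA was therefore low with tetracycline, while MYCi975 libraries lay somewhat above their controls. Of 8 B cell markers, all were listed in P493-6, with summed levels of 3958 to 12080 CPM, and 1 in PC3, CD74, at 1.25 to 4.27 CPM. Of 8 epithelial markers, all were listed in PC3, at 2106 to 2315 CPM in sum, and 2 in P493-6, CD44 and EPCAM, at 220.5 to 472 CPM in sum. P493-6 MYCi975 replicate 3 had the highest summed CPM of the 13 mitochondrial members of all libraries, and the counts of mitochondrial members that rest on it are also given without it.

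With MYC shut off, most nuclear encoded members were lower and most mitochondrially encoded ones higher than in control. With tetracycline, 67 of 79 nuclear members fell and 2 rose, with a median log2 fold change of −0.73, while 10 of 13 mitochondrial members rose, all 13 had log2 fold changes above 0, and their median was 0.31. Calls are at an adjusted p below 0.05 by limma, fitted to log2(CPM + 1), after Benjamini-Hochberg correction across the whole table. Of all 13703 genes tested there, 41.9% were called lower and 36.2% higher, with a median of −0.05, so the share of nuclear members called lower, 84.8%, lies above the background. CPM are shares of a library, and in bulk RNA fewer cells of a kind and less RNA per cell cannot be told apart.

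With MYCi975 the medians of nuclear members lay closer to 0. In P493-6, 29 of 80 nuclear members fell and 4 rose, with a median of −0.12. Only 1 was called higher without P493-6 control replicate 1 or 2 or P493-6 MYCi975 replicate 1. Among the 4 was NDUFA4L2, which was listed only through its MYCi975 libraries. There 9 of 13 mitochondrial members rose, and their median was 0.39, with 12 of 13 above 0. The background there was 18.0% called lower and 10.6% called higher, with a median of −0.04. Scaling the libraries by TMM gave 21 members called lower and 17 higher in place of 29 and 13 (DESeq2 called 15 lower), and for all genes 1690 lower and 1819 higher in place of 2338 and 1375. In PC3, 31 of 80 nuclear members fell and 18 rose, with a median of −0.07, against a background of 30.1% lower and 29.0% higher and a median near 0. Of the PC3 mitochondrial members 3 rose and 1 fell. Only 1 was called higher without PC3 MYCi975 replicate 2 or 3, and 2 without PC3 control replicate 1 or 3. The PC3 total is thus close to the background. The same shares of all genes are the background for the counts by complex. Of all genes, 61.9% had no overlap between treated and control libraries in PC3, 40% with MYCi975 in P493-6 and 78.4% with tetracycline. A lack of overlap in a named member is therefore common among all genes.

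The sums show the same split by genome. The 79 nuclear members in all tables summed to 6652.5, 6243.1 and 6236.6 CPM with tetracycline and to 9582.8, 9372.4 and 9443.6 CPM with MYCi975 in P493-6, against 10041, 10089 and 10141 CPM in control. All 3 tetracycline libraries lay far below every control, and the MYCi975 libraries lay just below them. The 13 mitochondrial members summed to 18810, 21907 and 18997 CPM with tetracycline and 18634, 18491 and 22605 CPM with MYCi975, against 15563, 14397 and 14535 CPM in control, again without overlap but in the opposite direction. Mitochondrial transcripts made up 75.7 ± 2.0% of member CPM with tetracycline and 67.6 ± 2.51% with MYCi975, against 59.5 ± 1.12% in P493-6 control (SD, n = 3 each). In PC3 the groups overlapped, with 9754.3, 9896.5 and 9588.9 CPM nuclear with MYCi975 against 10174, 9941.7 and 9749.6 CPM in control, and 8751.7, 9723.8 and 10526 CPM mitochondrial against 7595.9, 9402.2 and 8864 CPM.

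**Figure D1:**
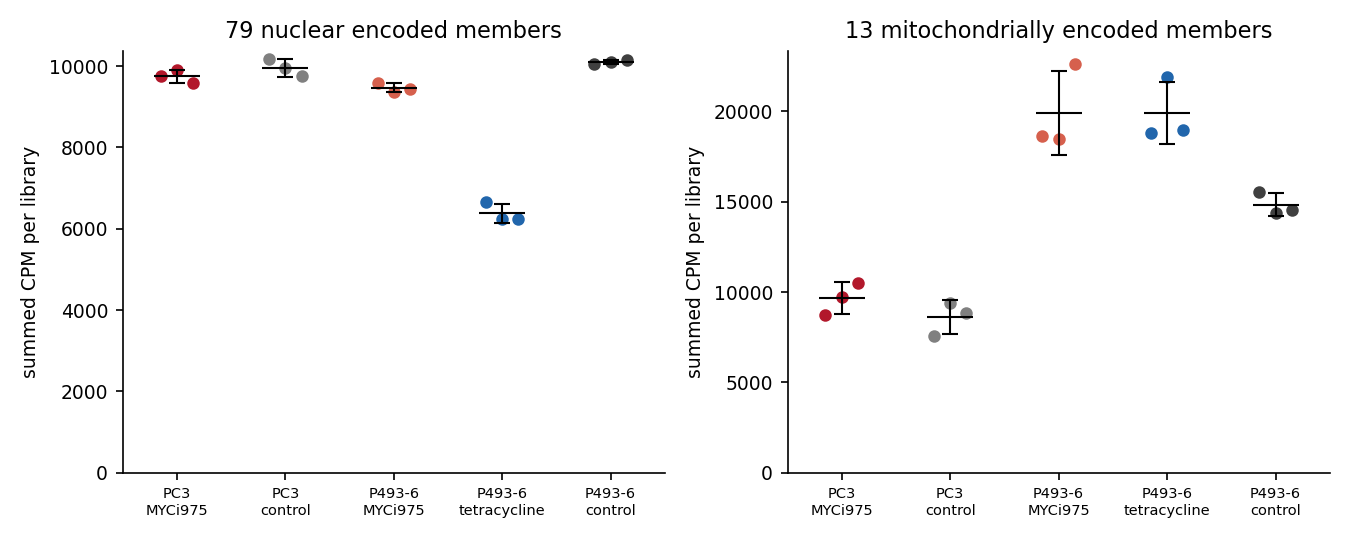
Summed CPM of the 79 nuclear (left) and 13 mitochondrial (right) members in each of 15 libraries (points), with the group mean and SD (bars, n = 3). Nuclear sums with tetracycline lie between 6236.6 and 6652.5 CPM, below P493-6 control at 10041 to 10141 CPM, while mitochondrial sums of both treated P493-6 groups lie above control.

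**Figure D2:**
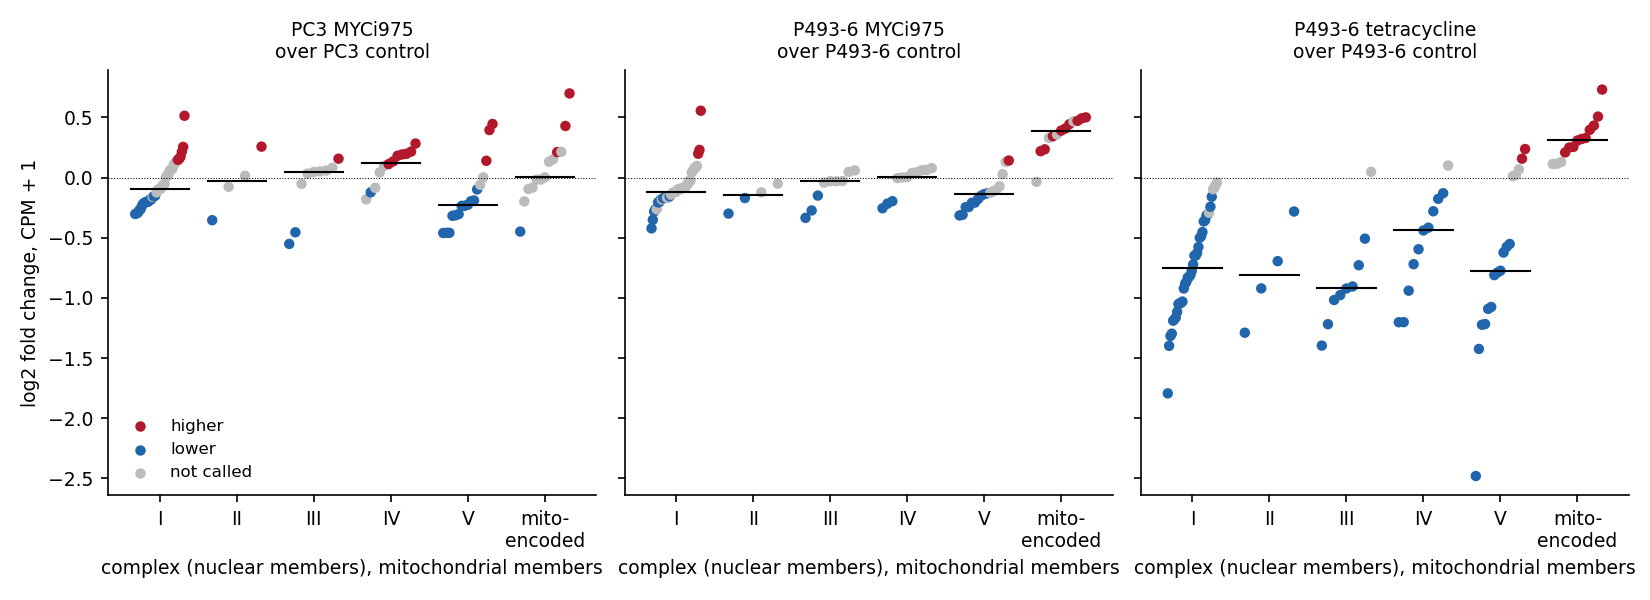
Log2 fold changes on the log2(CPM + 1) scale of nuclear members by complex and of the mitochondrial members, in 3 comparisons with control. Each point is a gene, coloured by its limma call, and bars are medians, which for nuclear members with tetracycline lie below 0 in every complex.

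Complex I takes electrons from NADH. Its nuclear members fell in 33 of 38 cases with tetracycline, with a median of −0.75. With MYCi975 in P493-6 11 of 39 fell and 3 rose, and in PC3 15 of 38 fell and 6 rose. By name these counts hold NDUFA4, now placed in complex IV, which fell with tetracycline and rose in PC3. They also hold its alternative form NDUFA4L2, 1 of the 3 called higher with MYCi975 in P493-6. It passed the authors' expression filter there only through its MYCi975 libraries, so its call carries no weight. The 7 nuclear core subunits, which carry the NADH site and the iron-sulfur path, all fell with tetracycline, with log2 fold changes of −1.18 to −0.24. In PC3 they were mixed: NDUFS7, NDUFS8 and NDUFV1 rose, NDUFS3 and NDUFV2 fell. The NDUFS7 call was lost under DESeq2 (0.15, adjusted p = 0.0724), without PC3 control replicate 2 or 3 and without PC3 MYCi975 replicate 1 or 2 (0.11 to 0.15). These roles within complexes were chosen, and NDUFS7, NDUFS3 and NDUFV2 named, after the values were seen.

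NDUFAB1, the acyl carrier protein that is also a complex I subunit and serves lipoic acid synthesis, had 56.59, 55.37 and 49.82 CPM with tetracycline and 158.6, 149.2 and 158.4 CPM with MYCi975, against 183.4, 193 and 190.9 CPM in P493-6 control. Every tetracycline library lay below every MYCi975 library, and those below every control. Its log2 fold change was −1.79 ± 0.06 (SE; adjusted p = 4.62e-28) with tetracycline and −0.28 ± 0.05 (adjusted p = 3.54e-06) with MYCi975. In PC3 it had 110.4, 105.3 and 109.8 CPM with MYCi975 against 138.6, 133.1 and 128.9 CPM in control, again with no overlap (−0.30 ± 0.04, adjusted p = 8.08e-10). NDUFB10 and NDUFB6, accessory subunits of the membrane arm, fell with tetracycline, with log2 fold changes of −1.32 and −1.40, and NDUFA5, an accessory subunit of the matrix arm, fell by 0.30 in PC3 (adjusted p = 1.54e-05).

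NDUFS4, an accessory subunit of the NADH-binding arm whose loss causes Leigh syndrome, moved the other way. It had 82.01, 83.95 and 79.38 CPM with MYCi975 in PC3 against 55.76, 55.1 and 60.12 CPM in control, with no overlap (0.51 ± 0.05, adjusted p = 6.27e-16). In P493-6 it had 41.91, 47.57 and 42.83 CPM with MYCi975 and 35.24, 35.04 and 35.37 CPM with tetracycline, against 37.9, 34.64 and 39.8 CPM in control. The MYCi975 libraries were the highest (0.23 ± 0.07, adjusted p = 0.0122), a call that was lost without P493-6 control replicate 2 or P493-6 MYCi975 replicate 2 (0.18 each), and the tetracycline libraries lay within the range of the controls (−0.08 ± 0.08, adjusted p = 0.319). The rise was larger in PC3 than in P493-6, with a difference of 0.28 ± 0.09 (adjusted p = 0.00958). NDUFB1, named after its values were seen, fell by 0.42 on the log2 scale with MYCi975 in P493-6 (adjusted p = 2.66e-05) and gave −0.04 ± 0.08 with tetracycline (adjusted p = 0.65).

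Complex II, succinate dehydrogenase, links the citric acid cycle to the chain. All 4 subunits fell with tetracycline, and 2 fell with MYCi975 in P493-6. SDHB, its iron-sulfur subunit, had 62.21, 64.32 and 63.26 CPM with tetracycline and 140.4, 145 and 130.7 CPM with MYCi975, against 153.7, 159 and 155.2 CPM in control. Tetracycline libraries stood well below both other groups (−1.29 ± 0.05, adjusted p = 5.48e-24), and MYCi975 libraries a little below control (−0.17 ± 0.05, adjusted p = 0.00511), a call that was lost under DESeq2 (−0.13, adjusted p = 0.119). With MYCi975 in PC3 the flavin subunit SDHA fell and the membrane anchor SDHC rose. SDHA had 183.5, 186.7 and 190.4 CPM against 237.9, 239.4 and 239.9 CPM in PC3 control (−0.35 ± 0.03, adjusted p = 1.23e-15). SDHC had 61.6, 62.34 and 61.43 CPM against 49.86, 51.4 and 53.36 CPM (0.26 ± 0.05, adjusted p = 1.55e-05). Neither pair of groups overlapped. SDHA has pseudogene copies, so its reads are uncertain; the row of SDHAP1 stayed at 8.474 to 12.2 CPM in PC3.

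Complex III oxidises reduced coenzyme Q. With tetracycline 8 of 9 nuclear members fell, and UQCRB, a small subunit at the coenzyme Q site that is named after its values were seen, gave 0.05 ± 0.05 (adjusted p = 0.388). With MYCi975 3 of 9 fell in P493-6, and in PC3 2 of 9 fell and 1 rose. CYC1, cytochrome c1, had 65.65, 60.4 and 62.86 CPM with tetracycline and 179.1, 168 and 176.3 CPM with MYCi975, against 165.1, 168.7 and 168 CPM in control. Tetracycline libraries formed a separate low group (−1.40 ± 0.05, adjusted p = 4.47e-25), while MYCi975 and control overlapped (0.06 ± 0.04, adjusted p = 0.341). UQCRFS1, the Rieske iron-sulfur protein, was the member with the largest fall in PC3. It had 66.68, 65.88 and 66.24 CPM with MYCi975 against 96.89, 96.77 and 98.98 CPM in PC3 control, 2 tight groups far apart (−0.55 ± 0.05, adjusted p = 3.91e-19). In P493-6 it fell with MYCi975 to 107.7, 105.3 and 106.2 CPM and with tetracycline to 69.79, 68.61 and 66.6 CPM, against 125.8, 131.4 and 129.1 CPM. The fall with MYCi975 was larger in PC3 by 0.28 ± 0.06 on the log2 scale (adjusted p = 0.000513). UQCR10, a small subunit, fell in all 3 comparisons, by 0.45 in PC3, 0.33 with MYCi975 in P493-6 and 1.02 with tetracycline. UQCRQ, another small subunit, fell by 1.22 with tetracycline (adjusted p = 1.66e-23).

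**Figure D3:**
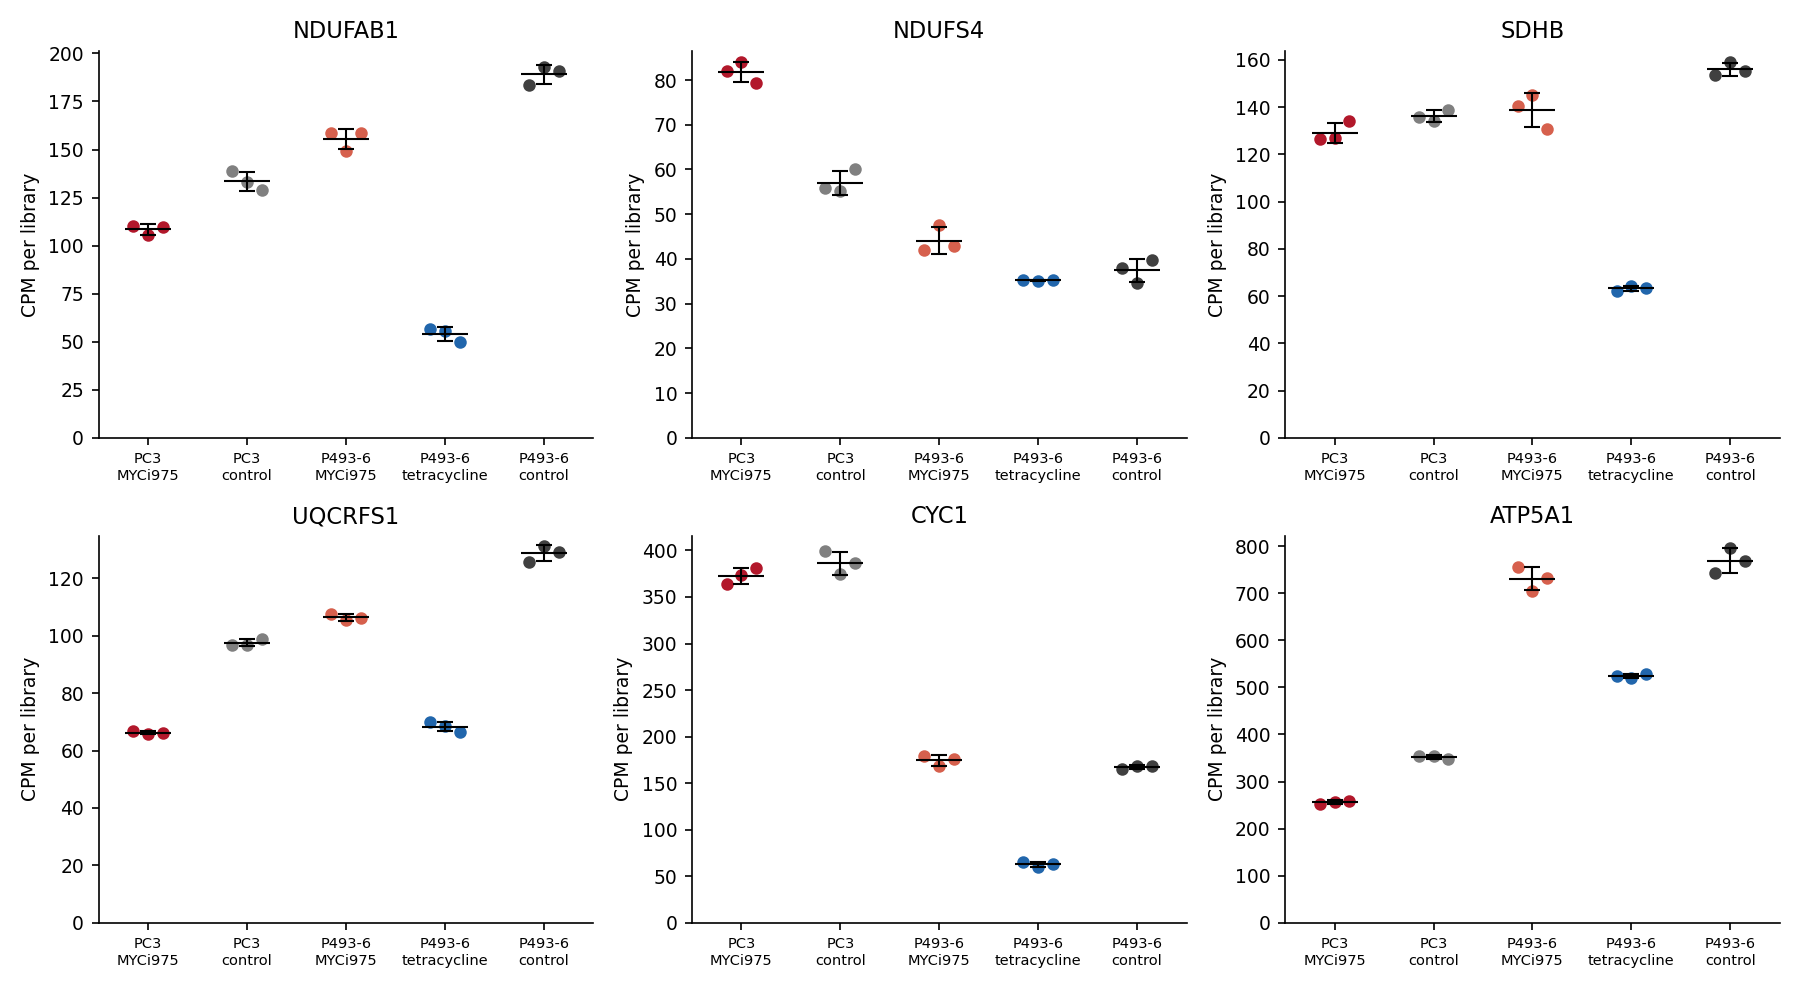
CPM of 6 nuclear members in each of 15 libraries (points), with group mean and SD (bars, n = 3), by group. NDUFAB1, SDHB and CYC1 are lowest with tetracycline, UQCRFS1 and ATP5A1 are lower in treated than in control PC3, and NDUFS4 is higher in treated than in control PC3.

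Complex IV, cytochrome c oxidase, had more nuclear members up than down in PC3. There 7 of 12 rose and 1 fell, with a median of 0.12, against 29.0% and 30.1% of all genes. COX7C, a small subunit, had 835.3, 855.3 and 799.4 CPM with MYCi975 against 709.6, 722 and 711.2 CPM in PC3 control, with no overlap (0.22 ± 0.03, adjusted p = 3.77e-11). COX7A2L had 90.26, 97.76 and 93.73 CPM against 78.68, 78.66 and 73.63 CPM, also apart (0.28 ± 0.05, adjusted p = 9.82e-08). COX5A, a subunit on the matrix side, was the member that fell (−0.12 ± 0.05, adjusted p = 0.0177), a call that was lost under DESeq2 (−0.12, adjusted p = 0.0747) and without PC3 control replicate 1 (−0.11) or PC3 MYCi975 replicate 3 (−0.08). With MYCi975 in P493-6 3 of 11 fell, with a median of 0.00 and a range of −0.25 to 0.08. With tetracycline 10 of 11 fell, with a median of −0.44 that was nearest to 0 among the complexes. COX5A and COX7B fell, with log2 fold changes of −1.2 each, and so did COX4I1, a large nuclear subunit, with −0.18. The COX4I1 call was lost under TMM scaling (−0.10, adjusted p = 0.0521) and DESeq2 (−0.10, adjusted p = 0.107). COX8A gave 0.10 ± 0.08 (adjusted p = 0.279), with 36.38, 36.14 and 31.93 CPM against 28.5, 33.08 and 35.91 CPM in control. The tissue-specific forms COX4I2, COX6A2, COX6B2, COX7A1 and COX8C were not listed in any table, so the ubiquitous forms made up the measured set. Of NDUFA4, now placed in complex IV, the alternative form NDUFA4L2 was listed at 2.224, 1.283 and 2.097 CPM with MYCi975 against 0.7755, 0.9007 and 1.125 CPM in P493-6 control. At these low counts its call (adjusted p = 0.0396) was lost on leaving out any of 4 libraries, with values of 0.46 to 0.55. Listed genes had to exceed 1 CPM in at least 2 libraries, and of the controls only the one at 1.125 CPM did. The gene was thus listed through the group in which it is high, which favours a call of higher.

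COX6A1, a regulatory subunit, moved in opposite directions with MYCi975. It had 171.4, 168 and 164.3 CPM with MYCi975 against 154.4, 153.9 and 150.2 CPM in PC3 control, and 92.29, 83.89 and 93.05 CPM with MYCi975 against 103.1, 103.3 and 102 CPM in P493-6 control. Neither pair overlapped, and the difference between the changes was 0.33 ± 0.06 (adjusted p = 4.84e-05). The P493-6 fall lost its call without P493-6 MYCi975 replicate 2 (−0.15, adjusted p = 0.0565) and under DESeq2.

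Most nuclear genes of complex V, the ATP synthase, fell in PC3. There 12 of its 17 nuclear members fell and 3 rose, with a median of −0.23, or 70.6% lower against 30.1% of all genes. With MYCi975 in P493-6 10 fell and 1 rose, or 58.8% lower against 18.0%, and with tetracycline 12 fell and 2 rose, or 70.6% lower against 41.9%, with medians of −0.14 and −0.77. In the F1 head, which holds the catalytic sites, 4 of 5 genes fell in PC3, 3 of 5 with MYCi975 in P493-6 and 4 of 5 with tetracycline. ATP5A1, the alpha subunit, had 251.8, 257.1 and 259 CPM with MYCi975 against 353.3, 354.7 and 348.2 CPM in PC3 control, far apart (−0.46 ± 0.03, adjusted p = 1.42e-23). In P493-6 the MYCi975 libraries, at 755.1, 705.6 and 732.4 CPM, overlapped those of control, at 742.4, 795 and 768.7 CPM (−0.07 ± 0.04, adjusted p = 0.162). The difference between the lines was −0.39 ± 0.05 (adjusted p = 2.12e-08). ATP5B, the catalytic beta subunit, fell by 1.22 with tetracycline. Of the stalk that holds the head in place, 4 of 4 genes fell with tetracycline and 3 of 4 in PC3.

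ATP5E, the epsilon subunit of the head, is named after its values were seen because it went against the rest of the head. It had 171.2, 158.9 and 162.1 CPM with tetracycline and 126.9, 123.7 and 128.1 CPM with MYCi975, against 137.1, 133.9 and 146.1 CPM in control. The tetracycline libraries were all above control (0.24 ± 0.05, adjusted p = 3.15e-05) and the MYCi975 libraries all below it (−0.14 ± 0.05, adjusted p = 0.0264). The MYCi975 call was lost under TMM scaling (−0.09, adjusted p = 0.154), edgeR, DESeq2 and the replicate block, without P493-6 control replicate 3 (−0.10) and without P493-6 MYCi975 replicate 1 (−0.14) or 2 (−0.12). ATP5J2 and ATP5I are small membrane subunits. ATP5J2 fell in all 3 comparisons, by 0.46 in PC3. ATP5I had 70.29, 70.98 and 63.2 CPM with MYCi975 against 64.3, 60.94 and 59.89 CPM in PC3 control, where the groups overlapped, and 90.15, 85.57 and 94.55 CPM with MYCi975 against 102.7, 110.8 and 107.3 CPM in P493-6 control, where they did not. The changes were 0.14 ± 0.05 (adjusted p = 0.0155) and −0.25 ± 0.05 (adjusted p = 0.00028), and their difference was 0.38 ± 0.08 (adjusted p = 8.55e-05). The PC3 call was lost without PC3 control replicate 3 or PC3 MYCi975 replicate 1 or 2 (0.11 to 0.12). ATP5S, an assembly factor under an older name, had 10.24, 12.47 and 11.66 CPM with MYCi975 against 7.472, 7.723 and 9.26 CPM in PC3 control, with no overlap (0.45 ± 0.11, adjusted p = 0.000313).

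Subunit c, which forms the rotating ring of the synthase, is encoded by 3 nuclear genes that did not move together. ATP5G1 lies at chr17:48892765-48895871 on the plus strand, ATP5G2 at chr12:53632726-53677408 on the minus strand and ATP5G3 at chr2:175176258-175184607 on the minus strand (hg38, as the authors list them). Their last 225 coding bases before the stop codon, which hold the mature protein, are shown because they encode the same 75 residues from different bases. They were taken from GENCODE v29 transcripts by the longest open reading frame, from an ATG to a stop codon. The 5 ATP5G2 transcripts had 2 different ends, and the end held by most of them is shown. Capitals mark the 52 positions at which the genes are not all alike.
ATP5G1: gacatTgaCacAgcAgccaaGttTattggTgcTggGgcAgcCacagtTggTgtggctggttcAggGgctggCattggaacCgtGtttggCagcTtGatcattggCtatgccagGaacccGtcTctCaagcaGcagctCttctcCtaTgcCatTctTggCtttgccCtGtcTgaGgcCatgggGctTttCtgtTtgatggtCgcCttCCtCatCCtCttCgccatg
ATP5G2: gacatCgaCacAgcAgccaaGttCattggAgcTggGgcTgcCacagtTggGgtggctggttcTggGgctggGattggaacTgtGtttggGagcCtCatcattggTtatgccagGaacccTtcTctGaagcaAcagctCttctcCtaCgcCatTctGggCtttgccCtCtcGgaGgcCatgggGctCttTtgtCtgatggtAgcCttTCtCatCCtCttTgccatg
ATP5G3: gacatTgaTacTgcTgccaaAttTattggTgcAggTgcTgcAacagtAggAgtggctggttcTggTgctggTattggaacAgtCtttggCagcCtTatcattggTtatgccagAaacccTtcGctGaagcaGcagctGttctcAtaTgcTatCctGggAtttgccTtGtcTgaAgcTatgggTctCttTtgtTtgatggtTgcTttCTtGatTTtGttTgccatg
Between ATP5G1 and ATP5G2 25 bases differ, and ATP5G3 differs from each of them at 42 bases. ATP5G1 also has processed pseudogenes, with which it may share reads.

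ATP5G1 had 15.72, 14.09 and 12.13 CPM with tetracycline and 73.22, 75.7 and 68.79 CPM with MYCi975, against 79.87, 78.61 and 88.4 CPM in P493-6 control. The tetracycline libraries were the lowest by a wide margin, and this was the largest fall of any member (−2.48 ± 0.08, adjusted p = 2.35e-26). MYCi975 libraries lay just below control (−0.18 ± 0.06, adjusted p = 0.0149), a call that was lost under TMM scaling (−0.13, adjusted p = 0.0811), under edgeR and DESeq2, with all 9 P493-6 libraries in 1 fit, without P493-6 control replicate 3 (−0.13, adjusted p = 0.136) and without P493-6 MYCi975 replicate 3 (−0.14, adjusted p = 0.0845). In PC3 it had 53.35, 48.81 and 48.85 CPM with MYCi975 against 63.36, 56.85 and 53.44 CPM in control (−0.20 ± 0.06, adjusted p = 0.00191), and the call was lost without PC3 control replicate 1 (−0.13, adjusted p = 0.0645).

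ATP5G3 had 50.73, 48.27 and 49.22 CPM with tetracycline and 109.4, 106.5 and 107.3 CPM with MYCi975, against 127.2, 137 and 138.7 CPM in P493-6 control. The 3 groups were ordered with no overlap, and the log2 fold changes were −1.42 ± 0.06 with tetracycline (adjusted p = 3.94e-24) and −0.31 ± 0.05 with MYCi975 (adjusted p = 1.96e-06). In PC3 it had 50.92, 56.11 and 55.49 CPM with MYCi975 against 78.61, 71.13 and 74.69 CPM (−0.46 ± 0.05, adjusted p = 5.06e-13).

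ATP5G2 was called higher in each comparison with control, of which the P493-6 ones share their control libraries. It had 108.6, 107.7 and 102.5 CPM with MYCi975 against 82.69, 81.84 and 77.12 CPM in PC3 control, with every treated library above every control (0.40 ± 0.04, adjusted p = 5.3e-13). In P493-6 it had 144.3, 137 and 145.3 CPM with MYCi975 and 157.9, 139 and 135 CPM with tetracycline, against 126.7, 123.5 and 136.3 CPM in control. MYCi975 libraries lay above control by a small margin (0.14 ± 0.05, adjusted p = 0.0229), and tetracycline libraries overlapped it (0.16 ± 0.05, adjusted p = 0.00846). The MYCi975 call was lost without P493-6 control replicate 1 or 2 and without P493-6 MYCi975 replicate 1 or 3 (0.11 to 0.13), and the tetracycline call without P493-6 control replicate 2 (0.13) or P493-6 tetracycline replicate 1 (0.09). The PC3 rise exceeded that in P493-6 by 0.25 ± 0.07 (adjusted p = 0.00238).

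The makeup of subunit c reads therefore shifted towards ATP5G2 in every treated group. ATP5G2 gave 69.4 ± 0.87% of the CPM of the 3 genes with tetracycline and 44.1 ± 1.15% with MYCi975, against 37.3 ± 0.792% in P493-6 control (SD, n = 3 each). In PC3 it gave 50.4 ± 0.761% with MYCi975 against 37.8 ± 1.12% in control. No treated library overlapped its control. In PC3 the sum of the 3 genes hardly differed, at 211 ± 3.41 CPM with MYCi975 and 213 ± 10.1 CPM in control, whereas in P493-6 it was 207 ± 14.9 CPM with tetracycline and 323 ± 4.0 CPM with MYCi975, against 345 ± 15.8 CPM in control. These are shares of reads, not of molecules, because the genes differ in length. Per kilobase of all annotated exons, ATP5G2 stood at 36.08, ATP5G3 at 7.287 and ATP5G1 at 5.346 CPM with tetracycline, against 32.28, 19.81 and 31.47 CPM in control. These lengths join the exons of all transcripts of a gene, so they do not turn reads into molecules either.

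**Figure D4:**
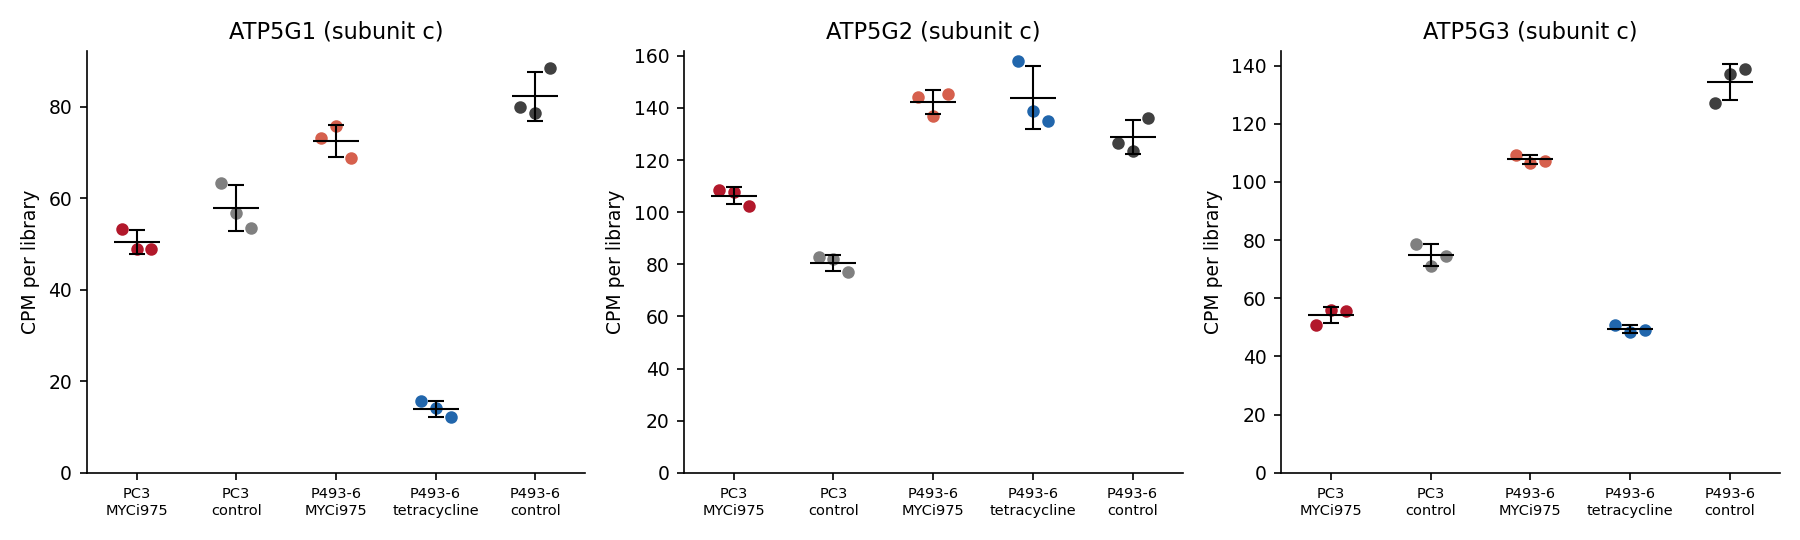
CPM of the 3 genes for subunit c in each of 15 libraries (points), with group mean and SD (bars, n = 3). ATP5G1 and ATP5G3 are lowest with tetracycline in P493-6, while ATP5G2 is higher in treated than in control PC3 and is not lower in any treated group.

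The mitochondrially encoded members are made from 2 strands, and MT-ND6 is the only one of them read from the light strand. In PC3, MT-ND6 had 58.65, 65.88 and 63.34 CPM with MYCi975 against 31.77, 44.26 and 39.39 CPM in control, without overlap. This was the largest rise of any member in PC3 (0.70 ± 0.12, adjusted p = 0.00137). In P493-6 its libraries overlapped, at 54.63, 65.3 and 70.74 CPM with tetracycline and 59.19, 45.2 and 66.49 CPM with MYCi975, against 81.81, 49.62 and 47.17 CPM in control. The difference between the lines was 0.73 ± 0.33 (adjusted p = 0.119), so a difference in response was not shown.

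MT-CYB, cytochrome b of complex III, had opposite changes in the 2 lines. It had 257.1, 273.4 and 299.5 CPM with MYCi975 against 332.2, 415 and 389 CPM in PC3 control. In P493-6 it had 1126, 1363 and 1175 CPM with tetracycline and 1125, 1143 and 1385 CPM with MYCi975, against 961.5, 896 and 916.4 CPM in control. In PC3 all treated libraries were below control and in P493-6 all were above. The log2 fold changes with MYCi975 were −0.45 ± 0.11 in PC3 (adjusted p = 0.0262) and 0.39 ± 0.08 in P493-6 (adjusted p = 0.00787), with a difference of −0.84 ± 0.15 (adjusted p = 0.0024). The PC3 call was lost on leaving out PC3 control replicate 2 or 3 or PC3 MYCi975 replicate 1 or 2, with values of −0.44 to −0.38.

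MT-CO1, the catalytic subunit of complex IV, rose in all 3 comparisons. It had 6560, 7544 and 6551 CPM with tetracycline and 5429, 5376 and 6471 CPM with MYCi975, against 4294, 4051 and 4067 CPM in P493-6 control, and 3016, 3276 and 3575 CPM with MYCi975 against 2185, 2628 and 2517 CPM in PC3 control. No treated library was within the range of its control. The log2 fold changes were 0.73 ± 0.04 (adjusted p = 2.39e-12), 0.47 ± 0.07 (adjusted p = 0.00209) and 0.43 ± 0.10 (adjusted p = 0.0242), and the PC3 call was lost without PC3 control replicate 3 (0.45) or PC3 MYCi975 replicate 2 (0.43) or 3 (0.37). Per kilobase of all annotated exons, MT-CO1 also had the highest level of all members in every group. It stood at 4465 CPM with tetracycline, 3735 CPM with MYCi975 and 2683 CPM in P493-6 control. In PC3 it stood at 2133 CPM with MYCi975 against 1585 CPM in control. The length joins the exons of all transcripts of a gene, which can lengthen nuclear genes, so the ranking depends on that choice.

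MT-ND4L rose in all 3 comparisons too, by 0.21 ± 0.07 in PC3 (adjusted p = 0.0185), 0.50 ± 0.06 with MYCi975 in P493-6 (adjusted p = 2.42e-09) and 0.32 ± 0.07 with tetracycline (adjusted p = 9.18e-05). Libraries of the PC3 groups overlapped. Its PC3 call was lost without PC3 control replicate 1 (0.11) and without PC3 MYCi975 replicate 2 (0.17) or 3 (0.20), and the gene overlaps MT-ND4, so reads in the overlap are uncertain. MT-ATP8 and MT-ATP6 overlap as well. In that comparison DESeq2 did not call MT-ND4L either (adjusted p = 0.125). MT-ND3, a small membrane subunit of complex I, gave −0.02 ± 0.08 in PC3 and 0.41 ± 0.05 in P493-6 with MYCi975, a difference of −0.42 ± 0.12 (adjusted p = 0.015). The other mitochondrial members lay between −0.20 and 0.21 in PC3, between 0.22 and 0.49 with MYCi975 in P493-6 and between 0.11 and 0.43 with tetracycline.

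Without P493-6 MYCi975 replicate 3, 12 of 13 mitochondrial members were called higher in P493-6 with MYCi975, in place of 9, and the median was 0.30 in place of 0.39. Rows near the members were read after their values were seen. The mitochondrial ribosomal RNAs MT-RNR2 and MT-RNR1 rose by 1.07 and 0.81 with tetracycline, where the median of the mitochondrial members was 0.31. In PC3 with MYCi975 they rose by 0.53 and 0.64, where that median was 0.00. With MYCi975 in P493-6 MT-RNR2 gave 0.46 ± 0.11 (adjusted p = 0.0374) and MT-RNR1 0.40 ± 0.13 (adjusted p = 0.0885). Nuclear copies of mitochondrial sequence can take some of these reads. MTATP6P1, such a copy, had 221.8, 259.5 and 207.7 CPM with tetracycline against 206.1, 190.9 and 183.8 CPM in control, and its part in the mitochondrial levels was not tested.

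**Figure D5:**
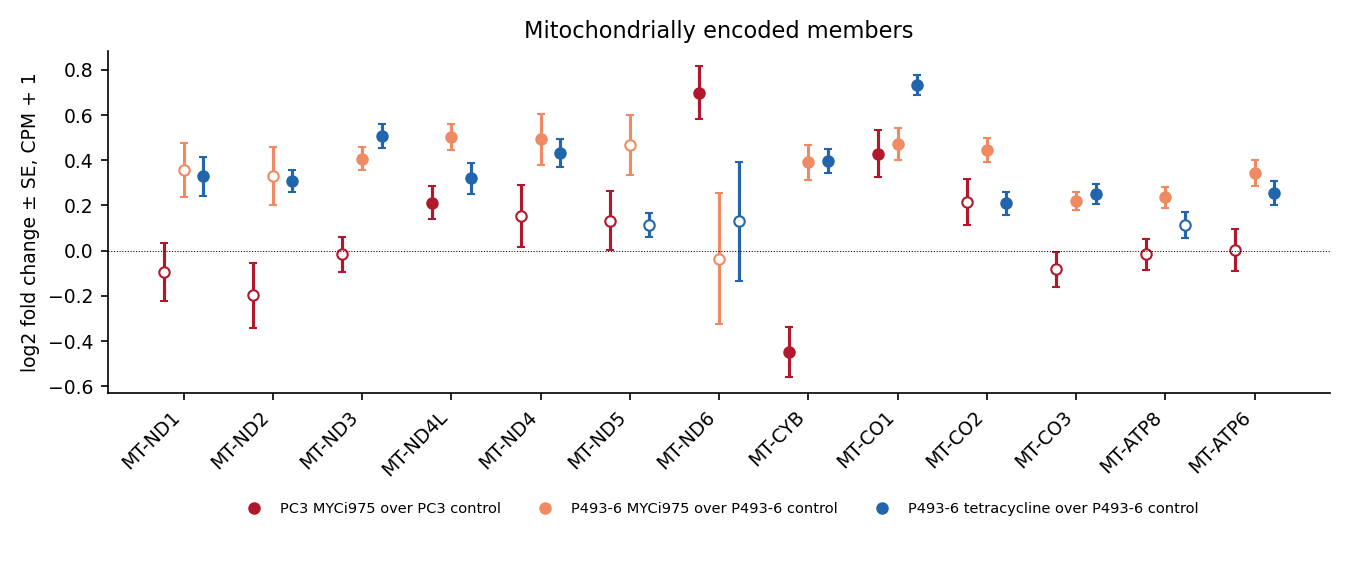
Log2 fold changes on the log2(CPM + 1) scale of the 13 mitochondrial members in 3 comparisons with control. Points are limma estimates with SE, filled where called and open where not. P493-6 values lie above 0 except for MT-ND6 with MYCi975, and in PC3 MT-CYB lies lowest at −0.45.

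The PC3 and tetracycline comparisons share no library, unlike those within P493-6, which share their controls. Among 79 nuclear members, 29 fell in both, which is 93.5% of the 31 that fell in PC3 and 43.3% of the 67 that fell with tetracycline. A further 14 were higher in PC3 and lower with tetracycline, or 77.8% of the 18 that rose in PC3 and 20.9% of the 67. These shares of the PC3 calls lie on either side of the 84.8% of all nuclear members that fell with tetracycline. Over the 11435 genes in both tables, 67.1% of those that fell in PC3 and 32.2% of those that rose were lower with tetracycline, against 47% of all. The 14 held NDUFS8, NDUFV1, COX6A1 and COX6C, a small complex IV subunit. NDUFS8 had 129.2, 126 and 141.1 CPM with MYCi975 against 117.6, 106.6 and 107.2 CPM in PC3 control, and 40.98, 41.16 and 38.2 CPM with tetracycline against 68.34, 74.1 and 73.15 CPM in P493-6 control. Treated libraries were all above control in PC3 and all below it with tetracycline. The log2 fold changes were 0.26 ± 0.04 (adjusted p = 2.75e-07) and −0.83 ± 0.07 (adjusted p = 1.87e-14).

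Set directly against tetracycline, MYCi975 left nuclear members higher in 68 of 79 cases and lower in 3, with a median of 0.62, where 42.3% of all genes were called higher and 33.9% lower with a median of 0.08. The largest differences were in ATP5G1 (2.30 ± 0.08, adjusted p = 4.81e-31), NDUFAB1 (1.51 ± 0.05, adjusted p = 1.36e-30) and CYC1 (1.46 ± 0.05, adjusted p = 7.4e-31), with the levels given above. Mitochondrial members were called higher in 3 and lower in 1 of 13. The count higher was 0 without P493-6 tetracycline replicate 1 or 3, 5 without P493-6 tetracycline replicate 2, and 2 without any of the control libraries or P493-6 MYCi975 replicate 2 or 3, and the count lower ranged from 0 to 2. Their median of 0.03 became −0.08 under TMM scaling. Their summed levels were 19910 ± 2335 CPM with MYCi975 and 19905 ± 1737 CPM with tetracycline (SD, n = 3 each).

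The response to MYCi975 was also compared between PC3, at 8 µM, and P493-6, at 6 µM, as the change in PC3 minus that in P493-6. Of 79 nuclear members 18 were called higher in that difference and 7 lower, and of 13 mitochondrial members 4 were called lower, against 18.1% higher and 18.2% lower of all genes. The mitochondrial count was 2 without P493-6 MYCi975 replicate 3 and 7 without PC3 control replicate 1. Over all members 19.6% were called higher, which is near the background. The median over members was 0.03. Nuclear members of complex IV were higher in 4 of 11 cases. The count of members called higher was 11 rather than 18 without PC3 control replicate 3 or without PC3 MYCi975 replicate 2.

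Genes that serve the chain without being part of it mostly fell with tetracycline. The background for these lists is the share of all genes called lower, 41.9% with tetracycline, 18.0% with MYCi975 in P493-6 and 30.1% in PC3, and the share called higher, 36.2% with tetracycline, 10.6% with MYCi975 in P493-6 and 29.0% in PC3. Of 21 genes listed for mitochondrial DNA and its RNA, 20 (95.2%) fell with tetracycline and 1, MGME1, rose, with a median of −1.44. The list joins genes that copy, package or transcribe this DNA with RNA-handling genes such as SLIRP and with LONP1. Its fall is therefore not a direct contrast with the rise of the mitochondrial transcripts. C10orf2, the mitochondrial helicase Twinkle, fell by 2.52 and SLIRP, which binds mitochondrial mRNA, by 2.38. In P493-6 with MYCi975 12 (57.1%) fell and 1 rose, and in PC3 15 (71.4%) fell and 2 rose, with MGME1, a mitochondrial exonuclease, at −0.84, and LONP1, a matrix protease, at 0.76. Assembly factors fell with tetracycline in 17 of 18 genes (94.4%) for complex I, 20 of 25 (80%) for complex IV and 12 of 15 (80%) for complexes II, III and V. NDUFAF2, which helps finish complex I, gave a log2 fold change of −2.83 and COA7, a complex IV factor, −3.16, while LYRM7 and BCS1L, which place the Rieske protein in complex III, gave −2.35 and −2.28.

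In PC3 5 of 18 complex I factors fell and 5 rose (27.8% each), which is close to the background. Of 25 complex IV factors 10 (40%) fell and 4 rose, and of 15 others 8 (53.3%) fell and 1 rose. TMEM70, which helps build the ATP synthase, fell by 0.68. Of 10 nuclear regulators of mitochondrial genes that were listed, 6 (60%) fell with tetracycline and 1 rose. PPRC1 and PPARGC1B, coactivators related to PGC-1 alpha, fell by 2.21 and 1.25, and in PC3 by 0.49 and 0.46. Of electron carriers and coenzyme Q genes 13 of 19 (68.4%) fell with tetracycline and 3 rose, and DHODH, which feeds electrons from pyrimidine synthesis into coenzyme Q, fell by 2.42. With MYCi975 in P493-6 3 of 19 (15.8%) fell, a share below the background, with CYCS, cytochrome c, at −0.40. In that comparison 11 of 25 complex IV factors (44%) fell and 1 rose, and 5 of 18 complex I factors (27.8%) fell. Of regulators 4 of 10 (40%) fell and 1 rose, and of the 15 other assembly factors 3 (20%) fell, near the background. In PC3 9 of 20 carrier and coenzyme Q genes (45%) fell and 3 rose, and 5 of 10 regulators (50%) fell and 2 rose.

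Promoters were read from RefSeq for the nuclear members, 250 bases before to 50 bases after the start of a gene (GRCh38.p14). Of 81 nuclear members 80 matched a RefSeq gene and 66 had a promoter. On both strands 4 short words were searched. The MYC-binding E-box CACGTG was in 7 of 66 members (10.6%), against 10.9% of 15843 coding genes. The NRF1 word GCATGCGC was in 21.2% against 4.89%, the ETS word CCGGAAG in 30.3% against 16.5% and the YY1 word AAGATGGCG in 13.6% against 3.21%. The words do not overlap one another in the promoters shown. Counted over single promoters, 8.75% of 80 member promoters and 8.34% of 22199 promoters held the E-box, and 18.8% and 3.74% the NRF1 word.

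The promoter of ATP5G1 and those of the 3 ATP5G2 promoters that hold a searched word are shown because these genes encode 1 mature protein and changed in opposite directions, and that of ATP5I because it holds 3 of the words. Capitals mark matched words. ATP5G1 is at chr17:48892537-48892836 on the plus strand, 2 of the ATP5G2 promoters at chr12:53676034-53676333 and chr12:53676281-53676580 on the minus strand, and ATP5I at chr4:674227-674526 on the minus strand.
ATP5G1: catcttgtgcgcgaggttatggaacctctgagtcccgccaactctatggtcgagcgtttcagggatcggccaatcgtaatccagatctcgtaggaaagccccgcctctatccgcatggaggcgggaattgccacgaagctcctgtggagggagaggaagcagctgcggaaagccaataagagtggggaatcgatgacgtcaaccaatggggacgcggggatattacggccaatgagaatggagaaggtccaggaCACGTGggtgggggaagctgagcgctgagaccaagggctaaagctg
ATP5G2 first: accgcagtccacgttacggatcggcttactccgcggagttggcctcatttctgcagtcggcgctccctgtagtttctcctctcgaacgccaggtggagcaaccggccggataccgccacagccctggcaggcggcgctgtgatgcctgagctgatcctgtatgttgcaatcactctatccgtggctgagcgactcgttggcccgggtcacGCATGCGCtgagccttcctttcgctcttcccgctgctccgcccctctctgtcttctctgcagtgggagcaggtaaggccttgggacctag
ATP5G2 second: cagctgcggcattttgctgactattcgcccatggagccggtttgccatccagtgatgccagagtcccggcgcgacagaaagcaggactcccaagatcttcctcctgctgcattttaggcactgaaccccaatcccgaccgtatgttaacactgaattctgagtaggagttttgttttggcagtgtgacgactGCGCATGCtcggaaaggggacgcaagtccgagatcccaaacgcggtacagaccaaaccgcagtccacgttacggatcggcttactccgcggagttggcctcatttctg
ATP5I: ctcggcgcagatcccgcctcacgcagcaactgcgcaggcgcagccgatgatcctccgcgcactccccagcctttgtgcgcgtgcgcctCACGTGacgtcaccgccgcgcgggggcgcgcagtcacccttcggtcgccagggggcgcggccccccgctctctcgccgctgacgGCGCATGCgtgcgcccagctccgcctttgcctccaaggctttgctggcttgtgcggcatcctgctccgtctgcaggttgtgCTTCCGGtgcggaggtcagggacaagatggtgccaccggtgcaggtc
The ATP5G1 promoter holds an E-box 5 bases after the start. The 2 ATP5G2 promoters shown hold an NRF1 word 40 and 58 bases before the start, while the third, at chr12:53675370-53675669, holds none of the 4 words, and ATP5I holds an E-box 162 bases before, an NRF1 word 78 bases before and an ETS word 4 bases after it.

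The 7 members with an E-box were ATP5F1, ATP5G1, ATP5I, NDUFA11, NDUFA7, NDUFS7 and UQCR11. With tetracycline 6 of them fell, with a median of −0.79, beside −0.73 for all 65 nuclear members with a promoter in that table. With MYCi975 in P493-6 the medians were −0.12 for both sets, and in PC3 0.05 and −0.08. A word in a promoter is a description of its letters and shows neither binding nor a cause of these changes.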

How the data were processed

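RNA from 15 libraries was enriched for exons with a stranded capture kit, per the labels' protocols. Reads were processed with STAR, HTSeq and edgeR on hg38, per the submitters' processing notes, with versions not given in the sources used here. Values were deposited by the authors as CPM (a gene's counts scaled to 1000000 reads) in 3 tables of 6 libraries, which hold genes above 1 CPM in at least 2 libraries, with log2 fold changes, adjusted p-values and marks of their own, not reported here. Every CPM value gave a whole read count within 0.001 reads. Exon capture affects levels between genes.

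Tests used limma 3.58.1 (R 4.3.3) on log2(CPM + 1) with a mean-variance trend and robust variances, which understates changes of low genes, with Benjamini-Hochberg adjustment over all genes of a table. MYCi975 was set against tetracycline in 1 fit of 9 P493-6 libraries, and the lines were compared by an interaction in 12. The scripts were tested on simulated data. Alternatives were a pseudocount of 0.1, a mean CPM of at least 5, TMM scaling, CPM without mitochondrial reads, edgeR 4.0.16 and DESeq2 1.42.0 on recovered reads, a replicate block, members without the non-subunits, all 9 P493-6 libraries in 1 fit and each library left out. Deviations of same-numbered libraries had correlations of −0.112 to 0.056, which cannot settle whether libraries were paired. Members and lists were chosen with earlier results of these data known. Named members were all mitochondrial ones, up to 3 called per complex and comparison with the largest change, up to 6 called in opposite directions, the 5 largest in each of the other contrasts, and alternative forms of a subunit. Others are said to be named after their values were seen, except that NDUFAF2, the other assembly factors, regulators and carriers are the 2 largest changes of their lists.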

Additional observations from a re-analysis of the deposited data

Results flagged for a closer look

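The change with MYCi975 differed between PC3 and P493-6, by an interaction test in limma with adjustment over all genes, in 29 of 92 members, of which 18 were called higher (19.6%) and 11 lower (12%), against 18.1% and 18.2% of all genes. All 29 are given, and each value is the log2 fold change in PC3 minus that in P493-6.

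Among mitochondrial members MT-CYB gave −0.84 (adjusted p = 0.0024), MT-ND3 −0.42 (adjusted p = 0.015), MT-CO3 −0.30 and MT-ND4L −0.29. In complex I NDUFS8 gave 0.34 (adjusted p = 0.000276), NDUFB1 0.33, NDUFA3 0.30 and NDUFS4 0.28. NDUFA4, counted there by its name, gave 0.28, NDUFS7 0.23 and NDUFA6 0.15, while NDUFB11 gave −0.29 and NDUFB7 −0.20. In complex II SDHC gave 0.38 (adjusted p = 0.000453), SDHD 0.31 and SDHA −0.30 (adjusted p = 1.03e-05). In complex III UQCRQ gave 0.20, UQCRB 0.19 and UQCRFS1 −0.28 (adjusted p = 0.000513). In complex IV COX6A1 gave 0.33 (adjusted p = 4.84e-05), COX7A2L 0.22, COX5B 0.20 and COX7C 0.18. In complex V ATP5S gave 0.42 (adjusted p = 0.0226), ATP5I 0.38 (adjusted p = 8.55e-05), ATP5G2 0.25, ATP5O −0.22, ATP5SL −0.36 and ATP5A1 −0.39 (adjusted p = 2.12e-08).

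Of these calls 17 held on leaving out each of 12 libraries in turn and 12 were lost at least once. The 12 were MT-ND4L, lost on leaving out 9 of the libraries, NDUFA6 (8), COX5B (7), NDUFB7 (6), COX7A2L (6), NDUFA3 (4), NDUFB1 (4), NDUFS7 (4), ATP5S (4), and UQCRB, MT-CO3 and ATP5O (1 each). The doses also differ between the lines, so line and dose cannot be told apart.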

How the results depend on the processing

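No call reversed among the members followed through the alternatives, which were named members and not all that were called. In P493-6 with MYCi975 the median of −0.085 became −0.041 under TMM scaling, −0.042 under edgeR and −0.044 under DESeq2, which called 15 members lower in place of 29. With tetracycline the median of −0.625 became −0.547, −0.557 and −0.559 under the same settings. For MYCi975 against tetracycline the median of 0.534 became 0.431, 0.436 and 0.442, and 8, 8 and 7 members were called lower in place of 4. In the comparison of lines the median of 0.034 became 0.001 under TMM scaling and 0 under edgeR, which called 17 members lower in place of 11. In PC3 the median of −0.053 became −0.046 under TMM scaling and edgeR and −0.048 under DESeq2. Leaving out 1 library gave medians of −0.062 to −0.023 in PC3, −0.106 to −0.066 in P493-6 with MYCi975 and 0.001 to 0.054 in the comparison of lines, where 11 to 19 members were called higher. All CPM values (100% of genes) came out as whole reads, and on these edgeR called 4051 genes higher and 4052 lower in PC3, 1814 and 1688 with MYCi975 in P493-6, and 5380 and 5346 with tetracycline. The labels state no pairing of libraries by replicate number, and correlations of same-numbered libraries cannot settle it with 3 libraries per group. A replicate block gave 24 members higher and 35 lower in PC3, 16 and 27 with MYCi975 in P493-6, and 13 and 67 with tetracycline. The causes of these shifts were not tested.

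With 3 libraries per group and low counts for genes such as NDUFA4L2 and ATP5S, small changes were not detectable at this depth, and CPM show shares of RNA, not amounts per cell.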
